A study of Mus musculus with 9 samples.

Results

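The unfolded protein response and the chaperones of the endoplasmic reticulum (ER) were followed through 33 genes of the 24060 named in the count table, and 32 of the 33 had enough counts to be tested. They are a list of gene symbols, which uses no threshold on the counts, and comprise 9 ER chaperones and cochaperones, 4 protein disulfide isomerases, 2 lectin chaperones, 3 stress sensors, 3 transcription factors, 4 targets of the PERK-ATF4 arm, 7 genes of ER-associated degradation and 1 translocon subunit. Their transcripts were measured by RNA-seq in 9 libraries of LSKs, the Lin-Sca1+Kit+ fraction of mouse bone marrow, in which stem cells and early multipotent progenitors reside. The labels give LSK as the cell type of every sample, but the names of the control libraries hold the word Bulk (replicate 1) or MPP_HSC (replicates 2 and 3), which those of the other groups do not. What these words say of the sort is not given in the sources used here, so a difference in sort and the difference from control cannot be told apart. The 3 control libraries came from C57BL/6 marrow, the 2 NHD13 libraries from marrow with the NUP98-HOXD13 fusion under the Vav promoter, which is active throughout blood cells, and the 4 NHD13/MSI2 libraries from marrow that also carried the doxycycline-inducible KH2-Col1A1-tet-on-MSI2 allele with ROSA26-rTTA. All donors were on the C57BL/6 strain, and in each group marrow was transplanted into lethally irradiated congenic recipients together with CD45.1+ helper cells. MSI2 was induced for 3 months, the labels give an age of 4 months for every sample, and the word dox stands in the names of the NHD13/MSI2 libraries alone. The 3 months are recorded for every group, but the sources used here do not state whether control and NHD13 mice received doxycycline. If they did not, doxycycline and induced MSI2 cannot be told apart. NUP98-HOXD13 causes a myelodysplastic syndrome in mice, and MSI2 (Musashi2) is an RNA-binding protein of haematopoietic stem cells. The comparisons ask how the ER stress genes differed between LSKs with the fusion, LSKs with the fusion and induced MSI2, and control LSKs.

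Proteins bound for the cell surface, the granules or the outside fold in the ER with the help of chaperones such as BiP (Hspa5). When unfolded protein accumulates there, 3 sensors respond: IRE1 (Ern1) splices Xbp1 mRNA into the form that encodes the active factor, ATF6 is cut to release a transcription factor, and PERK (Eif2ak3) phosphorylates eIF2 alpha, which lowers general translation and favours that of ATF4. ATF6 and XBP1 act on chaperone and degradation genes, whereas ATF4 acts on amino acid metabolism and stress genes such as Asns, Ddit3 and Trib3. Haematopoietic stem cells are known to be sensitive to the balance of these arms. Gene counts measure total mRNA and show neither Xbp1 splicing nor cleavage or phosphorylation of the sensors.

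The elements through which these arms act can be read in the promoters, and 29 of the 33 genes had a promoter sequence in the RefSeq table used here (build GRCm38.p6). Manf, Hyou1, Atf6 and Derl1 were not in it. The 250 bases before the RefSeq start were searched on both strands for the ER stress element ERSE (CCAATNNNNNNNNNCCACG), for ERSE-II (ATTGGNCCACG), for the XBP1 site UPRE (TGACGTGG) and for the CARE of ATF4 and C/EBP factors (TGATGNAA); N stands for any base. ERSE was present in 8 of the 29 genes (27.6%; Hspa5, Hsp90b1, Pdia6, Calr, Canx, Dnajc3, Creld2 and Syvn1) and in 0.13% of the 27025 genes in the table. ERSE-II was present in Herpud1 alone among the 29 (0.037% of all genes), CARE in Herpud1, Asns and Chac1 (3.91% of all genes), and UPRE in 0 of the 29 (0.603% of all genes). A match says only that these letters are in the window. ERSE shares its CCACG end with ERSE-II, and no site was counted under both in the 29 genes.

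Printed 5′ to 3′ on the strand of the gene are the promoters of 3 ERSE genes called higher in NHD13/MSI2 over control below, and of Asns, called lower. The fixed bases of the element are in capitals. Pdia3, Pdia4 and Xbp1, also called higher there, had no ERSE match, and Atf6 had no promoter sequence. The Hspa5 window is chr2:34771840-34772089 (plus strand), with its ERSE from 65 to 47 bases before the start. The Hsp90b1 window is chr10:86705445-86705694 (minus strand) and holds 2 ERSE, from 212 to 194 bases before the start and, on the opposite strand, from 107 to 89 bases before it. The Pdia6 window is chr12:17266339-17266588 (plus strand), with its ERSE from 98 to 80 bases before the start. The Asns window is chr6:7693210-7693459 (minus strand), with its CARE from 23 to 16 bases before the start. The gene starts that GENCODE M21 gives for Hspa5, Hsp90b1, Pdia6 and Asns lie inside these windows, so distances hold for the RefSeq starts.
Hspa5: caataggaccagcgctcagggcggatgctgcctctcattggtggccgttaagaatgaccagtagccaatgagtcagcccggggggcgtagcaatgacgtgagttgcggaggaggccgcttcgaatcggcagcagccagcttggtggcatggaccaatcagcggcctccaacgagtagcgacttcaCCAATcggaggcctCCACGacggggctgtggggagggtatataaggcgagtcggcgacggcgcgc
Hsp90b1: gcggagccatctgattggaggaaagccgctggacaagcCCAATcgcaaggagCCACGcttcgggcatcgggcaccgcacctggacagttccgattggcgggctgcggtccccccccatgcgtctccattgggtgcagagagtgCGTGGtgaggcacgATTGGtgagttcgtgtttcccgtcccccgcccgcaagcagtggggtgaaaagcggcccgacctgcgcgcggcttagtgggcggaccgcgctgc
Pdia6: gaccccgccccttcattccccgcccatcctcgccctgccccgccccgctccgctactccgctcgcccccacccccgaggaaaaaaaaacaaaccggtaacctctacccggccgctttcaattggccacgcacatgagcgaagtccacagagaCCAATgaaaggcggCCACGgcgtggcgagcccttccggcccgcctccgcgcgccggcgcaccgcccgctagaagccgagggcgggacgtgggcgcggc
Asns: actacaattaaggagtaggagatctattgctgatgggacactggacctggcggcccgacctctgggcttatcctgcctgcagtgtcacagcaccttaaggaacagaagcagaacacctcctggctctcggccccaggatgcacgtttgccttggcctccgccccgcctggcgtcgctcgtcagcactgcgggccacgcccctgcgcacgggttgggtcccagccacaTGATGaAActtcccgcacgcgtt

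The ERSE of the other 5 genes are printed to show how the 9 bases between the fixed ends vary, each read on the strand on which the element runs CCAAT to CCACG.
Calr: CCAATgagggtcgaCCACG
Canx: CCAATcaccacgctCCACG
Dnajc3: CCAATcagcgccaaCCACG
Creld2: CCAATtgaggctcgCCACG
Syvn1: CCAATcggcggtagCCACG

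**Figure D1:**
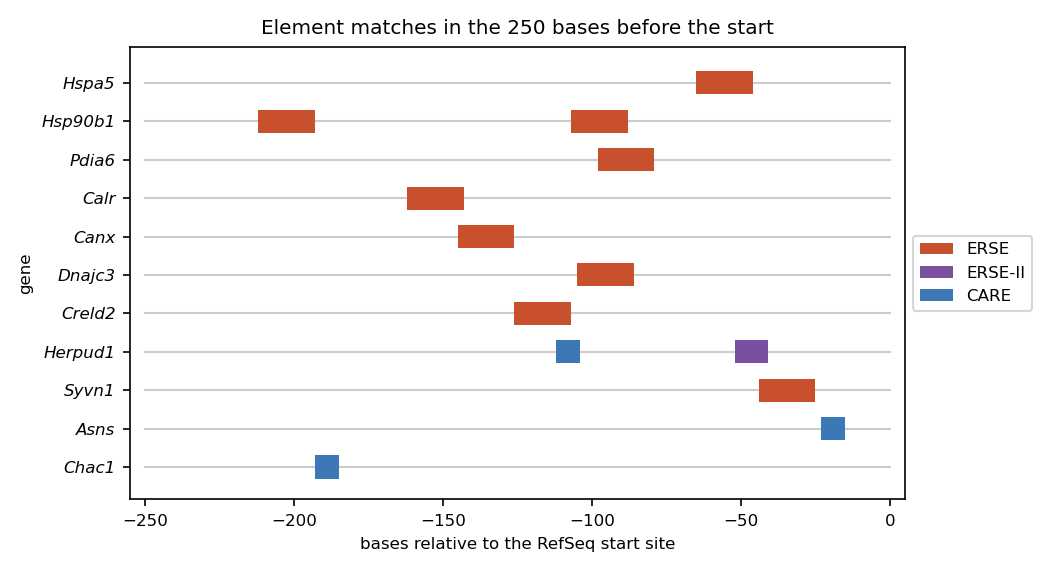
Positions of ERSE, ERSE-II and CARE matches (coloured bars) in the 250 bases before the RefSeq start of the 11 genes that hold any of them, in bases relative to the start on the x axis and 1 gene per row. The 9 ERSE lie in 8 genes, 2 of them in Hsp90b1.

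Libraries held 19242153 to 23013493 counts on named genes, so that 3 counts correspond to 0.12 to 0.195 CPM (counts per 1000000 of the library total after TMM scaling). The labels were checked on the genes they name. Hoxd13 had 0 counts in each control and 13 to 25 in each of the other 6 libraries. Msi2 had 223, 316 and 266 CPM in the controls, 139 and 111 in the NHD13 libraries, and 88.0, 77.1, 82.8 and 241 in those labelled NHD13/MSI2. The label of induced MSI2 was therefore not visible as an Msi2 count above the range of the controls. Replicate 4 of NHD13/MSI2 lay above both NHD13 libraries, and the other libraries of its group lay below them. Whether the gene counts include transcripts of the induced allele is not known. Every direction given for NHD13/MSI2 is that of the 4 libraries labelled so. Control replicates 1 and 3 had 21712 and 21664 Xist counts, while control replicate 2 and the other groups had at most 49 and carried Y-linked counts. Sex was thus mixed among the controls and the same in all libraries with the fusion. It cannot be fully told apart from the difference to control. NHD13/MSI2 replicate 4 stood apart from the other 3 of its group, with a TMM factor of 0.785 against 0.969 to 0.974 and a median distance of 0.556 on the log2 scale over all tested genes, against 0.253 to 0.289. Results that rest on it are given with and without it. Gene names in part of the table stood 2 rows too high and were moved, which concerned 11 of the 33 genes (P4hb, Pdia3, Pdia4, Pdia6, Ppp1r15a, Sdf2l1, Sec61b, Sel1l, Syvn1, Trib3 and Xbp1). Neither the labels nor the methods tie each library to a mouse, so p-values measure the spread between these samples, which may in part be technical. In bulk RNA, fewer cells of a type and less RNA per cell cannot be told apart.

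The 33 genes took a larger share of all counts in the NHD13 and NHD13/MSI2 libraries than in the controls. Their share was 0.846%, 0.823% and 0.8293% in the controls, 1.05% and 1.08% in NHD13, and 1.17%, 1.30%, 1.21% and 1.34% in NHD13/MSI2. The groups did not overlap on this measure. In NHD13/MSI2 replicate 4, however, Canx alone made up 47.2% of the members' counts, against 13.2% to 19.0% in the other 8 libraries. Without Canx the share in that library was 0.709%, near the 0.666% to 0.706% of the controls, while the other NHD13/MSI2 libraries stayed at 1.01% to 1.13% and the NHD13 libraries at 0.894% and 0.914%.

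**Figure D2:**
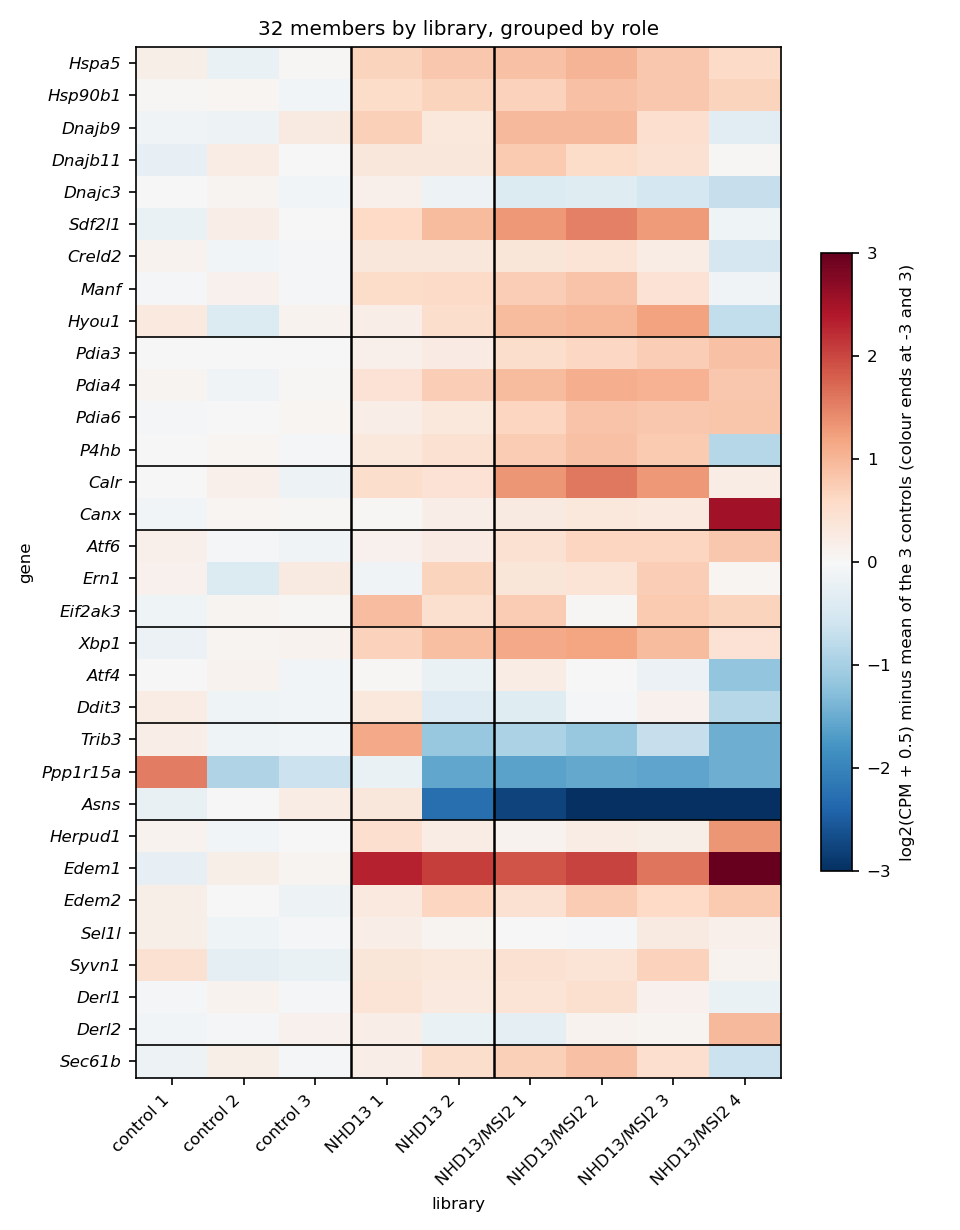
Each tested gene in each library as log2(CPM + 0.5) minus the mean of the 3 controls, with genes in rows grouped by role (black lines), libraries in columns and colour from blue (lower) to red (higher), cut at -3 and 3. Most chaperone rows, the isomerases and Xbp1 are red in NHD13 and in NHD13/MSI2 replicates 1 to 3, Dnajc3 is pale blue in all 4 NHD13/MSI2 libraries, Asns is blue in NHD13 replicate 2 and in NHD13/MSI2, and NHD13/MSI2 replicate 4 differs from its group in many rows, with P4hb, Hyou1, Dnajb9, Creld2, Manf and Sdf2l1 below the control mean.

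Against control, 8 of the 32 tested genes passed an adjusted p of 0.01 in NHD13/MSI2 (25%), where 11% of all 13355 tested genes did. The 7 that rose (21.9%, against 4.49% of all genes) were Hspa5, Hsp90b1, Pdia3, Pdia4, Pdia6, Xbp1 and Atf6, and the 1 that fell (3.12%, against 6.55%) was Asns. DESeq2 called 14 of the 32 (19.4% of all genes), these 8 with Calr, Sdf2l1, Edem1 and Edem2, which were higher, and Dnajc3 and Ppp1r15a, which were lower. The median log2 fold change was 0.55 over the 32 genes and -0.01 over all tested genes. In 12 genes every NHD13/MSI2 library lay above every control (37.5%, against 15.3% of all genes), and in 4, Asns, Dnajc3, Ppp1r15a and Trib3, every one lay below (12.5%, against 20.4%). The number of calls depended on single libraries, and so did the share of all genes that passed. The number was 2, 0 and 0 without control replicate 1, 2 or 3, where 5.32%, 5.68% and 4.9% of all genes passed. Without NHD13/MSI2 replicate 1, 2 or 3 it was 4, 1 and 1 (7.65%, 7.31% and 7.93% of all genes). It was 16 without replicate 4 (15.5%). The log2 fold changes of the 8 genes kept their sign in all 9 fits that left out 1 library of any group. With control replicate 2, the control with Y-linked counts, as the only control, 0 of the 32 genes and 0.693% of all genes passed in the edgeR fit, and the 7 fold changes above 0 were still above 0.

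**Figure D3:**
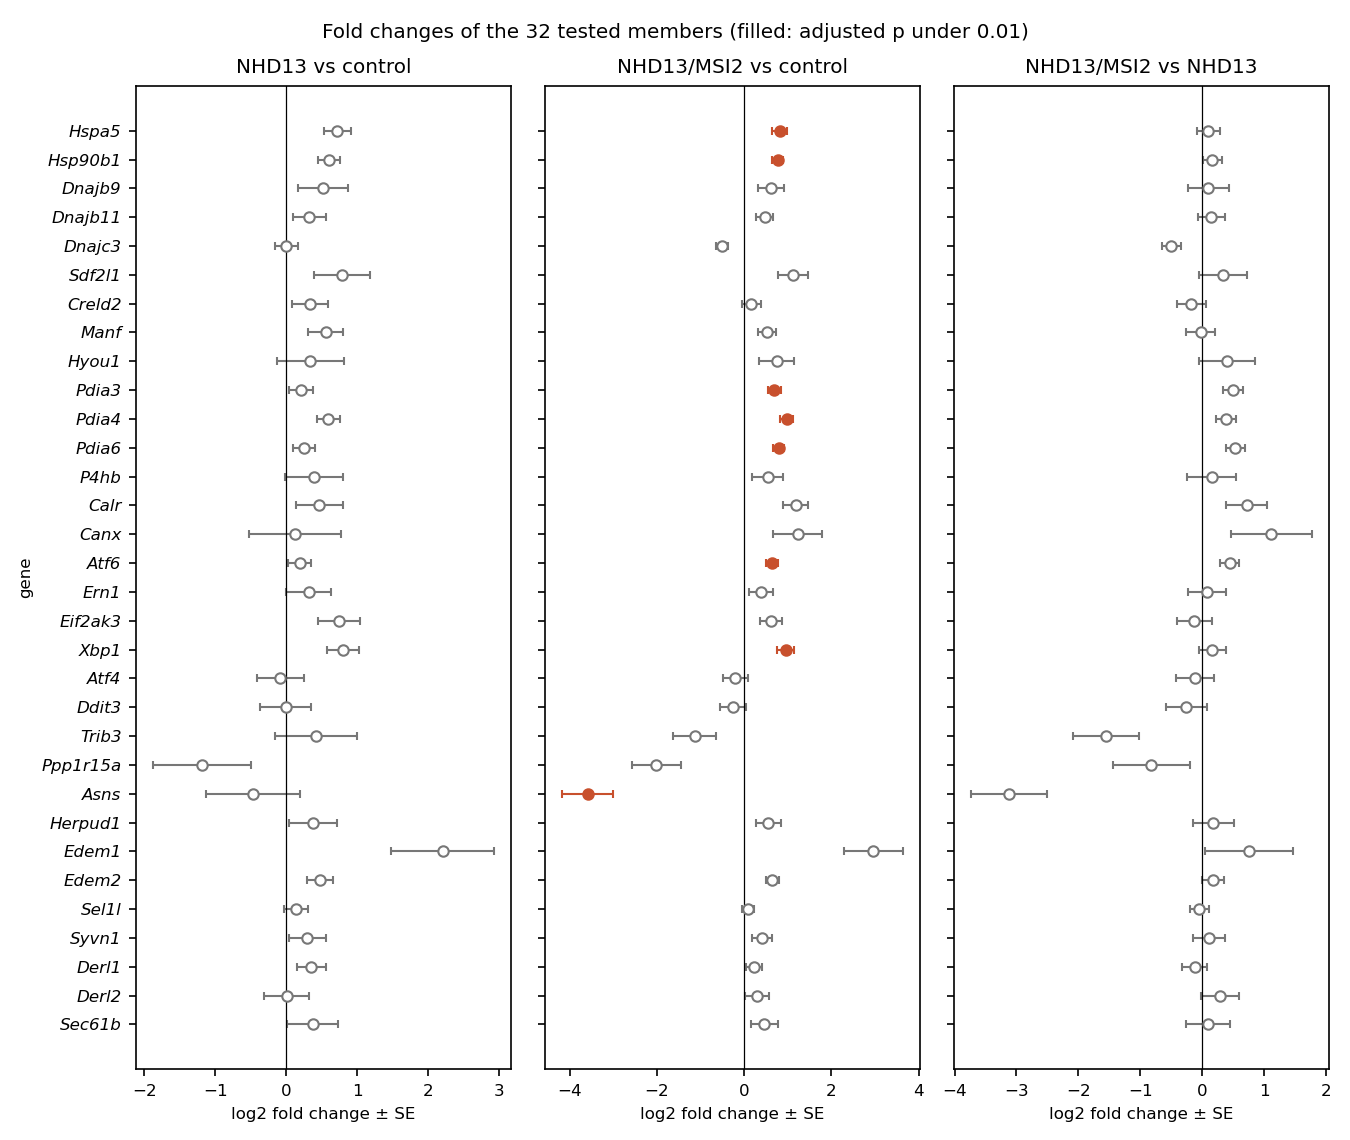
Log2 fold change (x axis) with its standard error (bars) of the 32 tested genes (rows) in NHD13 over control, NHD13/MSI2 over control and NHD13/MSI2 over NHD13; filled points passed an adjusted p of 0.01. The 8 filled points are all in NHD13/MSI2 over control, and most points of the first 2 panels lie right of 0.

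Among the ER chaperones and cochaperones, the 2 most abundant rose in NHD13/MSI2 over control (22.2% of the 9, against 4.49% of all genes). Hspa5 encodes BiP, the HSP70 of the ER, and lies at chr2:34771970-34777547 (GRCm38, plus strand). It had 1062, 813 and 962 CPM in the controls, 1483 and 1638 in NHD13, and 1718, 1896, 1657 and 1397 in NHD13/MSI2. All 6 libraries with the fusion were above all 3 controls, and the lowest of the NHD13/MSI2 libraries was below both NHD13 libraries. Its log2 fold change over control was 0.82 ± 0.17 (SE; edgeR adjusted p = 0.00795), or 1.76-fold. It ranged from 0.72 to 0.91 when single libraries were left out, and the adjusted p stayed under 0.01 in 1 of these 9 fits, that without NHD13/MSI2 replicate 4. A fit of the 2 groups alone also lost the call (0.0113). Hsp90b1 encodes GRP94, the HSP90 of the ER, at chr10:86690209-86705509 (minus strand). Its CPM were 589.6, 605 and 544 in the controls, 846 and 923 in NHD13, and 936, 1068, 1019 and 928 in NHD13/MSI2. The 3 groups did not overlap. The difference from control was 0.77 ± 0.13 on the log2 scale (edgeR adjusted p = 0.0037), with a range of 0.72 to 0.81 over the 9 fits, 4 of which kept it past the threshold.

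The other 7 of these genes did not pass in edgeR. DESeq2, which called 19.4% of all genes, called 2 of them, Sdf2l1 (adjusted p = 0.00963) and Dnajc3 (0.00191). Sdf2l1, a partner of ER HSP40 proteins, had 19.7, 26.0 and 22.9 CPM in the controls, 34.5 and 44.5 in NHD13, and 57.1, 66.0, 55.5 and 20.9 in NHD13/MSI2. Replicate 4 was the only NHD13/MSI2 library within the control range, and the log2 fold change over control was 1.13 ± 0.34 with it (edgeR adjusted p = 0.0459) and 1.39 ± 0.16 without it (0.000434). Dnajc3, which encodes the PERK inhibitor and BiP cochaperone p58IPK, was the one gene of this group with a negative fold change. It had 155, 164 and 146 CPM in the controls, 171 and 139.6 in NHD13, and 116, 121, 107 and 95.1 in NHD13/MSI2, so that the NHD13/MSI2 libraries lay below all others. Its log2 fold change was -0.50 ± 0.14 over control (edgeR adjusted p = 0.0283) and -0.50 ± 0.15 over NHD13 (0.0779). Its promoter holds an ERSE, as those of Hspa5 and Hsp90b1 do. Dnajb9, Dnajb11, Hyou1, Manf and Creld2 had control means of 30.5, 61.0, 44.8, 83.3 and 33.2 CPM, and in each of them NHD13/MSI2 replicate 4 lay below the other 3 of its group.

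The protein disulfide isomerases form and rearrange disulfide bonds in the ER, and 3 of the 4 rose in NHD13/MSI2 over control (75%, against 4.49% of all genes). Pdia4 (ERp72; chr6:47796141-47813430, minus strand) had 273, 239.7 and 266 CPM in the controls, 353 and 433 in NHD13, and 502, 549.7, 535 and 457 in NHD13/MSI2. Its log2 fold change over control was 0.98 ± 0.14 (edgeR adjusted p = 0.00154), the smallest adjusted p of the 32 genes, and it passed in 7 of the 9 fits that left out a library. Pdia6 (P5; chr12:17266545-17284770, plus strand) had 493, 503 and 524.5 CPM in the controls, 582 and 629.6 in NHD13, and 791, 919.5, 889.9 and 907 in NHD13/MSI2. Both genes were ordered control, NHD13, NHD13/MSI2 with no overlap between groups. The log2 fold change of Pdia6 was 0.79 ± 0.13 over control (edgeR adjusted p = 0.00286; 0.77 to 0.85 over the 9 fits, past the threshold in 4). Pdia3 (ERp57, the partner of calnexin and calreticulin; chr2:121413775-121438687, plus strand) had 1078, 1046 and 1060.2 CPM in the controls, 1181 and 1268 in NHD13, and 1529, 1645, 1768 and 1937 in NHD13/MSI2. It too had no overlap between the groups, with a log2 fold change over control of 0.70 ± 0.14 (edgeR adjusted p = 0.00817; 0.64 to 0.76 over the 9 fits, past the threshold only without NHD13/MSI2 replicate 4). The call was lost without the filter on low counts (edgeR adjusted p = 0.011) and in a fit of the 2 groups alone (0.0133). P4hb, which encodes PDI itself, had 660.0, 699 and 650.2 CPM in the controls, 835 and 920.2 in NHD13, and 1131, 1238, 1157 and 370.4 in NHD13/MSI2. Replicate 4 was the lowest of all 9 libraries and the other 3 were the highest, and the log2 fold change over control was 0.54 ± 0.35 with replicate 4 (edgeR adjusted p = 0.327) and 0.82 ± 0.08 without it (0.000228).

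The 2 lectin chaperones hold glycoproteins in the ER until they are folded, and they differed from each other in NHD13/MSI2. Calr (calreticulin) had 713, 799.9 and 646 CPM in the controls, 1027 and 967 in NHD13, and 1794, 2138, 1772 and 832 in NHD13/MSI2. Over control the log2 fold change was 1.18 ± 0.29 (edgeR adjusted p = 0.0178) and, without replicate 4, 1.41 ± 0.11 (7.33e-05). Canx (calnexin), the membrane-bound relative, had 1317, 1474 and 1429 CPM in the controls, 1444 and 1620.2 in NHD13, and 1694, 1755, 1721 and 8085 in NHD13/MSI2. The first 3 NHD13/MSI2 libraries lay close together and replicate 4 held 4.69 times their mean. The log2 fold change of Canx over control was 1.24 ± 0.56 (edgeR adjusted p = 0.162) with replicate 4 and 0.30 ± 0.08 (0.0245) without it.

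**Figure D4:**
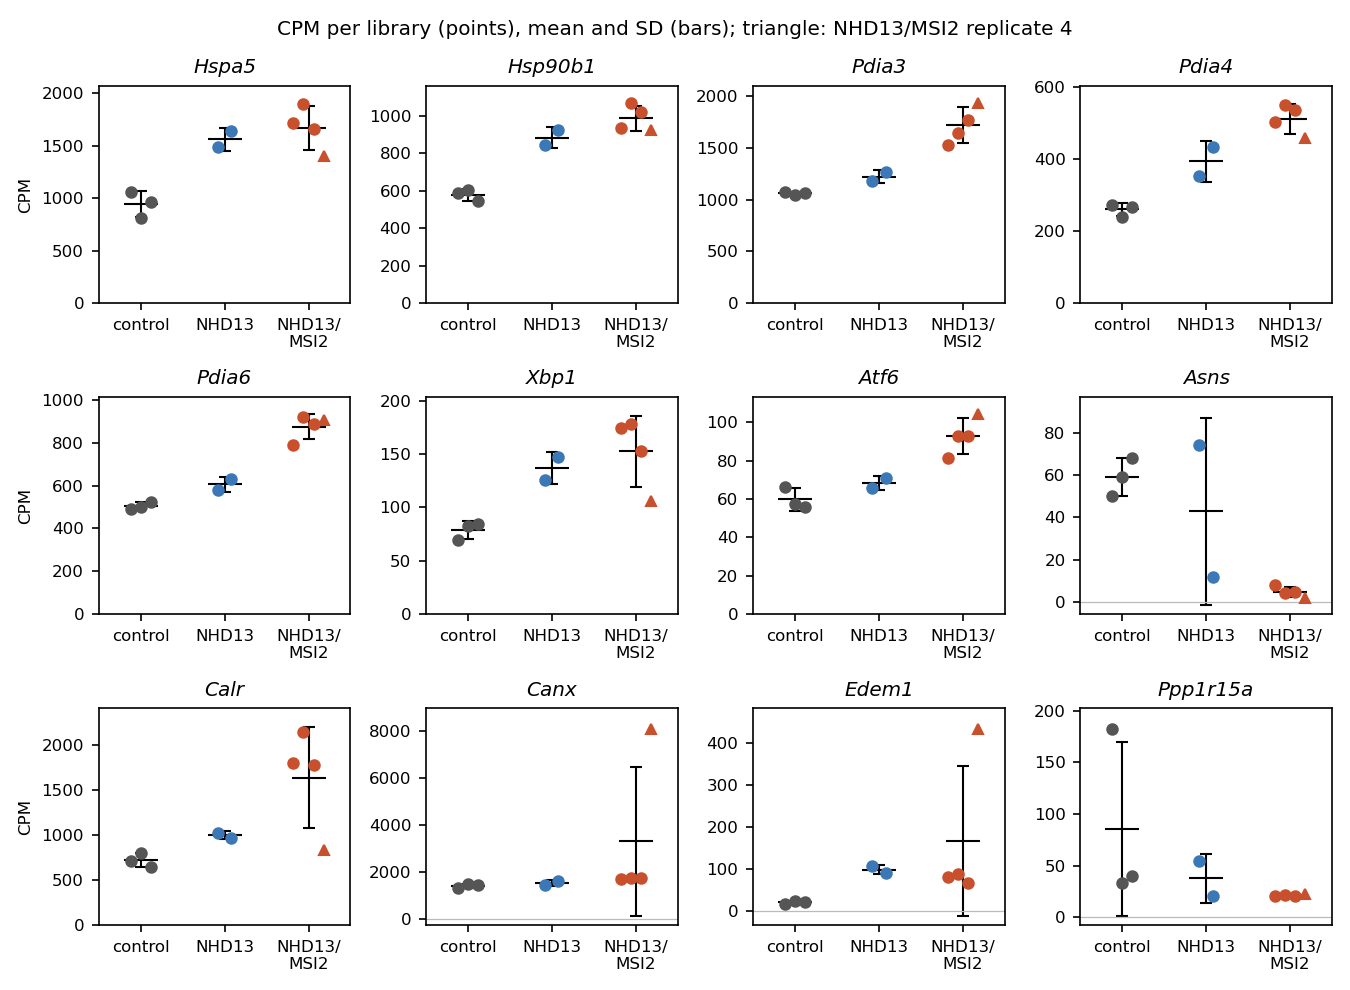
CPM (y axis, linear) of 12 genes in each library (points; the triangle is NHD13/MSI2 replicate 4) with the mean and SD of each group (black bars). In the top row and in Pdia6, Xbp1 and Atf6 every NHD13/MSI2 point lies above the controls, in Asns all 4 lie at 8.07 CPM or less, and in Calr, Canx and Edem1 the triangle stands away from the other 3.

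Of the sensors, Atf6 rose. This gene (chr1:170704674-170867771, minus strand) had 66.4, 57.2 and 55.5 CPM in the controls, 65.5 and 70.8 in NHD13, and 81.6, 92.9, 92.9 and 104 in NHD13/MSI2. Its log2 fold change was 0.64 ± 0.13 over control (edgeR adjusted p = 0.00892; 0.58 to 0.72 over the 9 fits, past the threshold only without NHD13/MSI2 replicate 4), and the NHD13/MSI2 libraries lay above both other groups. The call was also lost with RLE factors (edgeR adjusted p = 0.0108), without the filter on low counts (0.0133) and in a fit of the 2 groups alone (0.0113), while the log2 fold change was 0.635 to 0.664. Ern1 had 17.7, 12.01 and 19.6 CPM in the controls, 14.9 and 26.1 in NHD13, and 20.8, 21.7, 27.2 and 16.7 in NHD13/MSI2, with overlap between all groups (log2 fold change over control 0.40 ± 0.27, edgeR adjusted p = 0.353). Eif2ak3 had 7.24, 8.45 and 8.12 CPM in the controls, 15.4 and 11.3 in NHD13, and 13.7, 8.13, 14.1 and 12.9 in NHD13/MSI2. Replicate 2 of NHD13/MSI2 was at the control level and the other 5 libraries with the fusion were above it (log2 fold change over control 0.62 ± 0.26, edgeR adjusted p = 0.122). Per kilobase of exon, mean control levels were 8.24 CPM for Atf6, 2.02 for Ern1 and 1.64 for Eif2ak3, against 252 for Hspa5.

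The transcription factors of the arms did not move together. Xbp1, the factor of the IRE1 arm (chr11:5520659-5525893, plus strand), had 69.0, 82.9 and 84.0 CPM in the controls, 126 and 147 in NHD13, and 174, 178, 153 and 105 in NHD13/MSI2. All 6 libraries with the fusion lay above the controls, with a log2 fold change in NHD13/MSI2 of 0.96 ± 0.20 (edgeR adjusted p = 0.00783; 0.87 to 1.10 over the 9 fits, past the threshold in 3). Atf4 had 98.4, 108 and 93.6 CPM in the controls, 103 and 86.3 in NHD13, and 116, 100.5, 88.4 and 43.9 in NHD13/MSI2. Apart from the low replicate 4 its groups overlapped, and the log2 fold change over control was -0.20 ± 0.28 (edgeR adjusted p = 0.674) and, without replicate 4, 0.03 ± 0.12 (0.882). Ddit3, which encodes the pro-apoptotic factor CHOP, had 13.6, 10.7 and 10.9 CPM in the controls, 14.6 and 8.74 in NHD13, and 8.95, 11.3, 12.7 and 6.17 in NHD13/MSI2. Its groups overlapped (log2 fold change over control -0.26 ± 0.30, edgeR adjusted p = 0.602). The 95% interval of the Atf4 fold change over control, -0.82 to 0.42, covers changes in either direction.

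Of the 4 targets of the PERK-ATF4 arm, Asns fell in NHD13/MSI2 over control (33.3% of the 3 tested, against 6.55% of all genes). Trib3 and Ppp1r15a did not pass in edgeR (DESeq2 called Ppp1r15a), and Chac1 was not tested. Asns encodes asparagine synthetase (chr6:7675169-7693254, minus strand) and had 50.3, 58.9 and 68.2 CPM in the controls, 74.0 and 11.8 in NHD13, and 8.07, 4.59, 4.84 and 2.14 in NHD13/MSI2. The NHD13/MSI2 libraries were below all others, and the 2 NHD13 libraries split, one at the control level and one near NHD13/MSI2. The Asns log2 fold change over control was -3.58 ± 0.59 (edgeR adjusted p = 0.00267), with a range of -3.91 to -3.34 over the 9 fits, 5 of which kept it past the threshold. Trib3, a pseudokinase induced by ATF4 and CHOP, had 9.77, 7.73 and 8.04 CPM in the controls, 19.3 and 3.56 in NHD13, and 4.14, 3.59, 5.07 and 2.73 in NHD13/MSI2. The same NHD13 library was the low one, and the log2 fold change over control was -1.13 ± 0.49 (edgeR adjusted p = 0.142). Ppp1r15a (GADD34, which directs the dephosphorylation of eIF2 alpha) had 182, 33.6 and 40.4 CPM in the controls, 54.5 and 20.9 in NHD13, and 20.5, 21.5, 20.5 and 22.5 in NHD13/MSI2, with a log2 fold change over control of -2.01 ± 0.56 (edgeR adjusted p = 0.032). Its high control, replicate 1, also had a summed level of 1841 CPM over 14 handling and immediate early genes, against 272 to 638 CPM in the other 8 libraries (531 CPM of Fos, against 58.9 or less), and the part of this in the Ppp1r15a value was not tested. Without control replicate 1 the log2 fold change of Ppp1r15a was -0.80. Chac1 had 0 to 11 counts per library.

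In ER-associated degradation, which returns misfolded proteins to the cytosol for destruction, 0 of 7 genes passed in the edgeR fit with all libraries (11% of all genes). DESeq2 called Edem1 and Edem2 (19.4% of all genes). Both were at an unadjusted p under 0.05 in edgeR (28.6% of the 7, against 32.8% of all genes). Edem1, a mannosidase-like protein that marks glycoproteins for degradation, had the highest log2 fold change over control of the 32 genes. It had 17.99, 24.0 and 22.5 CPM in the controls, 107 and 91.5 in NHD13, and 80.6, 89.1, 66.4 and 434 in NHD13/MSI2. All 6 libraries with the fusion were above all controls. Over control the log2 fold change was 2.96 ± 0.68 in NHD13/MSI2 (edgeR adjusted p = 0.0132) and 2.21 ± 0.72 in NHD13 (0.181). Without NHD13/MSI2 replicate 4 it passed in both, at 1.88 ± 0.15 (0.000106) in NHD13/MSI2 and with an adjusted p of 0.000271 in NHD13. Edem2 had 169, 149 and 135 CPM in the controls, 183 and 237 in NHD13, and 205, 256, 227 and 257 in NHD13/MSI2, again without overlap (log2 fold change 0.65 ± 0.16 in NHD13/MSI2, edgeR adjusted p = 0.0166). Herpud1, Derl1, Derl2, Sel1l and Syvn1 lay at control means of 141, 87.8, 96.0, 163 and 21.0 CPM. Sec61b, of the translocon through which proteins enter the ER, had 68.5, 86.1 and 73.5 CPM in the controls and 125, 139.5, 107 and 48.5 in NHD13/MSI2. The 11 tested genes whose fold change over control is not given one by one had log2 fold changes of 0.09 (Sel1l) to 0.75 (Hyou1), and the smallest adjusted p among them was 0.119.

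In NHD13 over control, 0 of the 32 genes passed an adjusted p of 0.01 in edgeR, where 1.03% of all genes did, 0 passed 0.05 (2.89%), and 7 had an unadjusted p under 0.05 (21.9%, against 13.5%). DESeq2 called 3, Hspa5, Hsp90b1 and Pdia4 (4.45% of all genes). By their libraries the genes were nonetheless ordered: in 19 of the 32 both NHD13 libraries lay above all 3 controls (59.4%, against 18.9% of all genes), and in 0 of the 32 did both lie below (18.5% of all genes). The 19 comprised 7 chaperones and cochaperones, all 4 isomerases, Calr, Xbp1, Eif2ak3, Edem1, Edem2, Herpud1, Derl1 and Sec61b, and none of the ATF4 targets. The fold change was above 0 in 28 of the 32 (87.5%, against 52% of all genes), with a median of 0.35 on the log2 scale, against 0.02 over all genes. Hspa5 differed by 0.72 ± 0.20 on the log2 scale (edgeR adjusted p = 0.0994), Hsp90b1 by 0.61 ± 0.16 (0.0874), Pdia4 by 0.60 ± 0.17 (0.11), Xbp1 by 0.80 ± 0.23 (0.119) and Sdf2l1 by 0.79 ± 0.40 (0.455). Pdia3 and Pdia6 differed by 0.21 ± 0.17 (0.74) and 0.26 ± 0.15 (0.569), and Asns by -0.46 ± 0.66 (0.898), which became 0.31 without NHD13 replicate 2. The 3 control and 2 NHD13 libraries leave wide intervals, such as 0.28 to 1.16 for Hspa5 (95%).

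In NHD13/MSI2 over NHD13, 0 of the 32 genes passed in edgeR, where 3.17% of all genes did (0.584% higher and 2.58% lower), and 7 had an unadjusted p under 0.05 (21.9%, against 21.7%). Only Asns passed 0.05 (3.12%, against 8.81% of all genes), with a log2 fold change of -3.12 ± 0.62 (edgeR adjusted p = 0.0147). This value depended on the NHD13 libraries: it was -3.87 (0.00224) without NHD13 replicate 2 and -1.24 (0.274) without NHD13 replicate 1. Trib3 likewise had -1.55 ± 0.54 (0.119) in all libraries, -2.27 (0.00678) without NHD13 replicate 2 and 0.15 (0.927) without replicate 1. Of the isomerases, Pdia6 differed by 0.53 ± 0.15 (edgeR adjusted p = 0.0599), Pdia3 by 0.49 ± 0.16 (0.109) and Pdia4 by 0.38 ± 0.16 (0.206), each with all NHD13/MSI2 libraries above both NHD13 libraries. Atf6 differed by 0.45 ± 0.15 (0.117) in the same way. DESeq2 called Pdia3, Pdia6 and Asns (9.63% of all genes). For Hspa5 and Xbp1 the log2 fold changes over NHD13 were 0.09 ± 0.19 (edgeR adjusted p = 0.827) and 0.16 ± 0.22 (0.739), with 95% intervals of -0.33 to 0.52 and -0.33 to 0.65. Calr differed by 0.71 ± 0.33 (0.246) and passed without NHD13/MSI2 replicate 4, at 0.95 (0.00263). The median over the 32 genes was 0.13, against -0.03 over all genes. The NHD13/MSI2 libraries lay above both NHD13 libraries in 6 genes (18.8%, against 13% of all genes) and below both in Asns and Dnajc3 (6.25%, against 16.9%). In the joint test of the 3 groups, Asns, Hsp90b1, Pdia4 and Pdia6 passed (12.5%, against 8.9% of all genes).

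NHD13/MSI2 replicate 4 departed from its group in both directions. Of the 32 tested genes it lay below the range of the other 3 libraries in 21 (65.6%, against 37.6% of all tested genes), above it in 8 (25%, against 35.5%) and within it in 3 (9.38%, against 26.9%). Its median distance from the others was 0.642 on the log2 scale over these 32 genes and 0.556 over all tested genes, so that the departure concerned the whole library; for replicates 1 to 3 the distance over the 32 genes was 0.155 to 0.285. Relative to the mean of those 3 it was higher in Edem1 (5.51 times), Canx (4.69), Herpud1 (2.21) and Derl2 (1.98), and lower in Hyou1 (3.52 times), P4hb (3.17), Sdf2l1 (2.85), Asns (2.72), Sec61b (2.56), Atf4 (2.31) and Calr (2.28). Neighbours in one pathway thus parted: Canx was higher where Calr and P4hb were lower, and Pdia6 and Pdia4 changed by at most 1.16 times. GC content of the longest GENCODE transcript had a median of 46.6% in the 8 genes above (42.2% to 55.7%) and 50.6% in the 21 below (40.6% to 58.2%). These ranges overlapped widely. Over the 12765 tested genes with a GC value (95.6%), the median log2 ratio of replicate 4 to the other 3 was 0.01 in the fifth with the lowest GC and -0.27 in that with the highest, and its part in the members' values was not tested. Without this library 16 of the 32 genes passed against control (15.5% of all genes), and the 15 higher ones were the 7 named above with P4hb, Calr, Dnajb9, Sdf2l1, Manf, Hyou1, Edem1 and Sec61b.

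**Figure D5:**
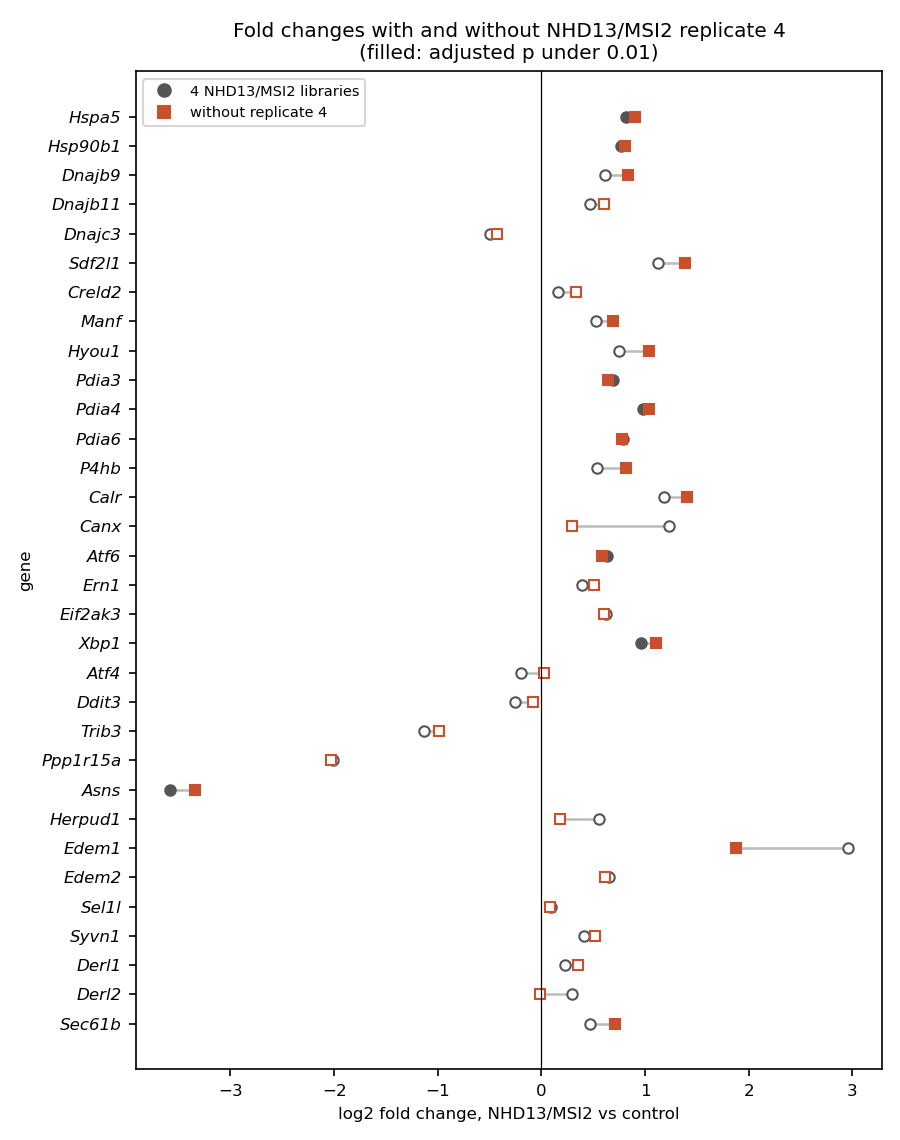
Log2 fold change of NHD13/MSI2 over control (x axis) for the 32 tested genes (rows) with all 4 NHD13/MSI2 libraries (grey circles) and without replicate 4 (red squares); filled symbols passed an adjusted p of 0.01. There are 8 filled circles and 16 filled squares, and Canx and Edem1 move most.

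The rest of the ER pathway was described through 146 other genes, of which 139 were tested. In NHD13/MSI2 over control 10 rose (7.19%, against 4.49% of all genes) and 4 fell (2.88%, against 6.55%), with a median of 0.25 on the log2 scale. In NHD13 over control 0 passed in edgeR (1.03% of all genes) and 4 in DESeq2 (4.45% of all genes). There, 17 had an unadjusted p under 0.05 in edgeR (12.2%, against 13.5%), and the median was 0.08. Those that rose included the folding sensor Uggt1, the signal peptidase subunit Spcs2, the signal recognition particle subunit Srp68, the degradation lectin Os9 and Atf6b, the relative of Atf6. Of 24 tested degradation genes 3 passed, all higher (12.5%, against 4.49%), and of 28 genes of translocation and glycosylation 2 passed, both higher (7.14%), with medians of 0.44 and 0.41. Among 34 other ATF4 targets 1 rose (Pycr1, of proline synthesis; 2.94%) and 2 fell (Nupr1 and Vldlr; 5.88%, against 6.55%), with a median of -0.19. Nupr1, a stress-induced chromatin protein, was the one gene of the 139 that passed over NHD13 (0.719%, against 3.17% of all genes): it had 36.9, 18.7 and 6.88 CPM in the controls, 33.9 and 29.5 in NHD13, and 0.569, 0.349, 0.498 and 1.17 in NHD13/MSI2 (log2 fold change -5.64 ± 0.63, edgeR adjusted p = 0.00138). For stress responses outside the ER, 3 of 19 cytosolic heat shock genes passed in NHD13/MSI2 over control, all lower (Hspa4l, Dnajb4 and Cryab; 15.8%, against 6.55%), with a median of -0.15. The sum of the heat shock list was 7397 to 8519 CPM in the controls, 7311 to 8523 in NHD13 and 8682.5 to 15270.4 in NHD13/MSI2, highest in replicate 4, so every NHD13/MSI2 library lay above every control. Of 12 mitochondrial stress genes 0 passed in edgeR (11% of all genes) and 0 in DESeq2 (19.4%). In edgeR 3 had an unadjusted p under 0.05 (25%, against 32.8%), with a median of -0.04. No test compared these lists with the ER genes.

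Secretory and granule-forming blood cells carry much ER, and markers of other cell types moved with the groups. The promyelocyte enzyme Mpo, itself folded in the ER, had 1862, 1589 and 1195 CPM in the controls, 3807 and 2959 in NHD13, and 7845, 13878, 12793 and 8648 in NHD13/MSI2 (log2 fold change over control 2.80 ± 0.29, edgeR adjusted p = 0.000254). The 12 neutrophil and promyelocyte markers summed to 2507 to 4608 CPM in the controls, 3448 to 4745 in NHD13 and 9119 to 15277 in NHD13/MSI2. Mpo alone passed over control in edgeR (8.33% of the 12, against 11% of all genes). Without Mpo the other 11 summed to 1312 to 3019 CPM in the controls, 489 to 938 in NHD13 and 484.5 to 1478 in NHD13/MSI2, so their sum did not share the higher level. The 11 did not move together: over control 3 had a log2 fold change above 0 and 8 below. Prtn3 had 191.5, 252 and 225.5 CPM in the controls and 592.5, 758, 594.5 and 193 in NHD13/MSI2. Of 8 tested plasma cell markers Mzb1 and Xbp1 rose and Fkbp11 fell. The list summed to 105 to 173 CPM in the controls and 125 to 222 in NHD13/MSI2. Most of the NHD13/MSI2 sum was Xbp1, itself one of the ER genes followed here (105.5 to 178.4 CPM, against 69.0 to 84.0 in the controls). The sum therefore does not show a rise of the list as a whole. Over control 3 of the 8 had a log2 fold change above 0 and 5 below, with a median of -1.69. Sdc1 had 0 CPM in all 4 NHD13/MSI2 libraries. The 8 B cell markers summed to 46.6 to 63.5 CPM in the controls and 262 to 449 in NHD13/MSI2. Cd79a, Cd79b and Pax5 rose (37.5%, against 4.49% of all genes). Most of the NHD13/MSI2 sum was Cd79a (125 to 261 CPM) and Cd79b (133 to 174). The log2 fold change over control was above 0 in 4 of the 8 and below 0 in 4. Among the 8, Ebf1 had at most 0.983 CPM in NHD13/MSI2 and Igll1 at most 0.349. Kit, which defines LSKs, had 1775 to 2254 CPM in the controls, 1932 and 1121 in NHD13, and 908 to 1402.5 in NHD13/MSI2. Ly6a, the gene of Sca1, had 79.3 to 89.8 CPM in the controls, 69.0 and 48.3 in NHD13, and 98.65 to 375 in NHD13/MSI2. In both genes the NHD13/MSI2 libraries did not overlap the controls, and neither gene passed in edgeR. Of 10 LSK markers 1 rose (Ly6e; 10%, against 4.49% of all genes) and 5 fell (Flt3, Cd34, Slamf1, Procr and Meis1; 50%, against 6.55%). Meis1 had 1015, 705 and 863 CPM in the controls and 6.41, 4.24, 4.16 and 11.7 in NHD13/MSI2. The part of these shifts in the values of the ER genes was not tested.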

How the data were processed

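Counts of reads per gene symbol were deposited by the authors as whole numbers, 1 column per library, without normalization or pooling; the submitters' processing notes name STAR, HTSeq, DESeq and mm9, with no versions. Gene symbols that had turned into dates left the later names 2 rows too high, so 11942 names were moved; the rows named Xist and Uty held 0 counts before the move and, after it, Uty counts stood in the libraries with other Y-linked counts and high Xist counts in the rest. The 13 rows left without a name (0.0253% to 0.0323% of the counts) were dropped. Libraries were grouped by their labels.

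Computations used R 4.3.3. Genes past filterByExpr (13355) were tested with glmQLFit and glmQLFTest of edgeR 4.0.16 (a quasi-likelihood test; limma 3.58.1) after TMM scaling, with all 9 libraries in 1 model (prior degrees of freedom 3.38). The 3 contrasts and the joint test were called at a Benjamini-Hochberg adjusted p under 0.01 over all genes tested. DESeq2 1.42.0 and the settings described in the closing section were alternatives. CPM are TMM-normalized, mean ± values of fold changes are standard errors, and groups have 3, 2 and 4 libraries. A zero allows up to 3 counts, for counting error only. The heat map adds 0.5 CPM before the logarithm.

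Given in full are genes past the threshold in any contrast and Hspa5, Hsp90b1, Xbp1, Atf4, Atf6, Ern1, Eif2ak3 and Ddit3. Other members are given by role, range and counts, and those of them described one by one (Calr, Canx, P4hb, Sdf2l1, Dnajc3, Edem1, Edem2, Trib3, Ppp1r15a and Sec61b) and the pathway genes named for their change over control were chosen after their values were seen. The 33 genes and all lists were chosen with earlier results of these data known. Gene positions, exon lengths and transcripts are from GENCODE M21 on GRCm38 and promoters from RefSeq on GRCm38.p6; they describe the genes and were not joined to coordinates of the build named for the counts.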

Additional observations from a re-analysis of the deposited data

Results flagged for a closer look

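In 4 of the 33 genes, NHD13/MSI2 replicate 4 lay farther from the other 3 libraries of its group than Dixon's 95% limit allows. It had 370.4 CPM of P4hb, where the nearest of the others had 1131, and 8085 CPM of Canx, where the nearest had 1755. It had 354 CPM of Herpud1, where the nearest had 166, and 434 CPM of Edem1, where the nearest had 89.1. The first of these genes was far below its group and the other 3 far above. Chance gives about 1 such value in 20 groups, and these 4 all concern 1 library. Over all tested genes that library lay above the range of the other 3 in 35.5% and below it in 37.6%. The limit was applied to the 33 genes only, so whether they hold more such values than other genes is not known. Their cause was not tested.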

How the results depend on the processing

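Against control in NHD13/MSI2, the 7 higher and 1 lower genes became 11 and 3 with DESeq2 and at an adjusted p under 0.05, 4 higher in a fit of the 2 groups compared, 0 and 0 with control replicate 2 as the only control (chosen after seeing the data, the lone control being assumed to vary like the other groups), and 4 and 2 with the names as deposited. With DESeq2 19.4% of all genes passed, at an adjusted p under 0.05 20.6%, and in the fit of the 2 groups 12.6%. Leaving out single control or NHD13/MSI2 libraries gave 0 to 15 higher and 0 to 1 lower, where 4.9% to 15.5% of all genes passed. Over NHD13, the 0 higher and 0 lower became 2 and 1 with DESeq2 (9.63% of all genes). They became 1 lower with no filter (2.97%), at an adjusted p under 0.05 (8.81%) and with names as deposited. Leaving out control or NHD13/MSI2 libraries gave 0 to 1 higher and 0 lower (1.16% to 4.86% of all genes). In NHD13 over control the 0 higher became 3 with DESeq2 (4.45% of all genes) and 1 in a fit of the 2 groups (0.637%). Leaving out control or NHD13/MSI2 libraries gave 0 to 1 there (0.288% to 1.89% of all genes). The joint test's 4 became 12 at an adjusted p under 0.05, and 0 to 12 with libraries left out. Shares of all genes are not given for the joint test in these settings or for the names as deposited. Those counts therefore cannot be set against all genes. Counts with RLE factors and a robust fit stayed within 1.5 times.

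Same-numbered libraries of different groups correlated at -0.07 to 0.19 in their deviations from the group means. With group means over as few as 2 libraries, these values cannot show whether the replicate numbers pair the libraries. Replicate number 4 occurs in NHD13/MSI2 alone, so a block by replicate number in effect leaves that library out. Log2 fold changes over control were near those without replicate 4, such as 0.294 and 0.30 for Canx and 1.403 and 1.409 for Calr. With this block, 12 genes were higher and 1 lower in NHD13/MSI2 over control (10.5% of all genes). Atf6, at an edgeR adjusted p of 0.0194, was no longer among them. In that fit 1 gene was higher in NHD13/MSI2 over NHD13 (1.52% of all genes), 1 was higher in NHD13 over control (0.756%), and 10 passed the joint test. Under the block the log2 fold change of Atf4 turned to 0.17 over NHD13 and 0.014 over control, and that of Ddit3 in NHD13 over control to 0.003.

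Other values that changed sign were not called. With control replicate 2 alone Ddit3 was at 0.13 in NHD13 over control. With libraries left out, log2 fold changes of NHD13/MSI2 over NHD13 ran from -0.26 to 0.12 for Atf4, -0.24 to 0.58 for Ern1, -0.29 to 0.14 for Eif2ak3, -0.54 to 0.19 for Ddit3 and -2.27 to 0.15 for Trib3. Over control Atf4 ran from -0.35 to 0.029, and in NHD13 over control Asns ran from -2.32 to 0.31, Atf4 from -0.21 to 0.031, Ern1 from -0.15 to 0.67 and Ddit3 from -0.42 to 0.31. The mean share of counts taken by the 33 genes, 0.833%, 1.07% and 1.26% in control, NHD13 and NHD13/MSI2, was 0.682%, 0.904% and 0.972% without Canx and 0.777%, 1.00% and 1.38% of TMM-scaled counts. The cause was not tested.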
